A study of Mus musculus with 6 samples.

Results

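The 9 genes described here encode matricellular proteins and the matrix glycoproteins they work with: Sparc, Ecm1, Thbs1, Thbs2, Fn1, Tgfbi, Postn, Tnc and Spp1. They were taken by symbol from the 23420 gene rows of a count table of mRNA sequencing in mouse keratinocytes, the main cells of the epidermis, kept in culture. All 9 were among the 12672 genes with enough reads to be tested. The 3 libraries labelled WT came from cells of genotype K14CreERT2-;Gata6 fl/fl, and the 3 labelled iKO (induced knockout) from cells of genotype K14CreERT2+;Gata6 fl/fl. Gata6, which encodes a zinc finger transcription factor, thus carried loxP-flanked alleles in both groups, and only the iKO cells carried CreERT2, a Cre recombinase that tamoxifen switches on, under the K14 (keratin 14) promoter, which is active in basal keratinocytes. Cells of both groups were grown in low-calcium E medium, were at passage 8 to 10, and were exposed to 4-hydroxytamoxifen (1 µM) over 6 hours. The comparison sets the transcripts of keratinocytes labelled iKO, in which Gata6 deletion was to be induced, against those of keratinocytes labelled WT.

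Matricellular proteins are secreted into the extracellular matrix but serve less as its scaffold than as modulators: they bind collagens, growth factors and cell surface receptors, and so alter adhesion, migration and growth factor activity. Fibronectin is a scaffold protein on which cells assemble other matrix components through integrin receptors. In skin, several of these genes are known for their activity in wound repair and at the junction of epidermis and dermis, and fibroblasts as well as keratinocytes can make them.

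The libraries held between 21943467 (WT 2) and 83337263 (iKO 33) reads assigned to genes. The column called iKO 33 here shows its group by its name but matches no sample title, so it is a member of the iKO group without a replicate number. No column used here matches the title numbered iKO 2, and which sample iKO 33 holds is not known. Gata6 itself did not follow the labels, as it measured 0.519 to 5.37 CPM (reads of the gene set against library size, which was corrected by TMM factors) in the libraries labelled WT and 14.2 to 21.02 in those labelled iKO, and counts per gene do not show whether the floxed exons were lost. Directions below are therefore those of the libraries labelled iKO against the libraries labelled WT. Xist, the RNA of the inactive X chromosome, had 605 to 889 CPM in WT and 0.0824 to 2.62 CPM in iKO, so sex of the cells, genotype label and presence of Cre cannot be told apart. Whether the libraries within a group come from separate cultures or animals is not stated in the labels; p-values thus reflect only the variation among these libraries, which may be technical. In bulk RNA, fewer cells that express a gene and less of its RNA per cell cannot be told apart.

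Markers of the labelled cell type were abundant: the summed level of 8 keratinocyte genes, led by Krt5 and Krt14, was 30413 to 42648 CPM in WT and 31964 to 47712 CPM in iKO. Values of 3 of these markers are given in most detail. Trp63, which encodes the p63 factor of basal keratinocytes, stood at 307 to 331 CPM in WT and 191 to 205 CPM in iKO, without overlap (log2 fold change -0.68, SE 0.10, adjusted p = 0.0529 in edgeR, 9.65e-09 in DESeq2 and 0.0438 in limma-voom, and up to 0.563 over all alternatives). Cdh1, the E-cadherin gene, stood at 419 to 442 CPM in WT and 563 to 725 CPM in iKO, also without overlap. Its log2 fold change was 0.55 (SE 0.12, adjusted p = 0.130 in edgeR and 0.00467 in DESeq2, and up to 0.598 over all alternatives). For Trp63 and Cdh1 the highest adjusted p came from a fit on group alone to WT 3, WT 4, iKO 3 and iKO 4. That fit was added after seeing the data. In every other alternative the adjusted p was at most 0.228 for Trp63 and 0.351 for Cdh1, both without WT 2. The basal keratin gene Krt15 had a log2 fold change of -1.28 (SE 0.49, edgeR adjusted p = 0.289) with overlapping groups. The groups also overlapped for the remaining markers: Krt5 at 0.13, Krt14 at 0.17, Itgb4 at 0.28, Epcam at 0.57 and Itga6 at -0.19. Of all 8 keratinocyte markers, 5 thus had positive and 3 negative log2 fold changes, and edgeR called 0 after adjustment. The part of these marker values in the results below was not tested. Of 11 fibroblast markers, Dcn, Lum and Fap had no count in any library, the collagen genes Col1a2 and Col3a1 were at most 0.0320 CPM, and the list summed to 1.20 to 4.86 CPM in WT and 2.05 to 4.82 CPM in iKO. The 3 fibroblast markers with enough reads to be tested were Pdgfra, at most 2.89 CPM in any library, Twist2, at most 2.10 CPM, and the collagen gene Col5a2, at 0.0633 to 0.323 CPM in WT and 0.178 to 0.959 CPM in iKO (log2 fold change 1.94, SE 0.82, edgeR unadjusted p = 0.0488, adjusted p = 0.330). In the other marker lists, 9 macrophage and leukocyte genes summed to 5.39 to 7.90 CPM in WT and 4.64 to 6.47 in iKO (Emr1 and Tyrobp at 0). The 6 endothelial genes summed to 10.1 to 19.9 and 7.55 to 9.31 CPM (Cldn5 at 0). Most of that sum was Kdr, at 6.13 to 16.7 CPM in WT and 5.85 to 6.18 CPM in iKO. The 5 smooth muscle and pericyte genes summed to 7.37 to 55.9 and 9.42 to 29.5 CPM. Acta2 held nearly all of this, at 7.24 to 55.6 CPM in WT and 9.07 to 29.2 CPM in iKO. Myh11, Des, Rgs5 and Cnn1 each had at most 0.244 CPM in any library. The 6 melanocyte genes summed to 6.08 to 11.9 and 5.69 to 8.45 CPM (Dct at 0).

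Upstream sequences are shown for Ecm1, the member with the smallest p in the comparison, and for Postn, the member whose level varied most between libraries. Each is the 250 bases before a RefSeq start site (GRCm38.p6), 5′ to 3′ on the strand of the gene: chr3:95739570-95739819, minus strand, for Ecm1 and chr3:54360857-54361106, plus strand, for Postn. Capitals mark matches, on either strand, to the GATA factor words (AGATAA as well as the variants AGATAG along with TGATAA besides the variant TGATAG), the AP-1 word TGANTCA and the TATA box word TATAAA.
Ecm1: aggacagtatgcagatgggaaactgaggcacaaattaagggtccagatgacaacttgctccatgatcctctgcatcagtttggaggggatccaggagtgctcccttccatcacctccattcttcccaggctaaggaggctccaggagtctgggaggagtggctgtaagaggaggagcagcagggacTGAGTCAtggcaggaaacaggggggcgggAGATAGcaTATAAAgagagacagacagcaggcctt
Postn: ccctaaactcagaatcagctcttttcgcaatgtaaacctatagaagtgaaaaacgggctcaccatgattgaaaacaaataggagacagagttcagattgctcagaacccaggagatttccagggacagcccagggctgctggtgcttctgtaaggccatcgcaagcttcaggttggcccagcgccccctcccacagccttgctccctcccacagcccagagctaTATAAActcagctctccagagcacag
The Ecm1 window held the GATA word AGATAG beginning 35 bases before the start, TGAGTCA 64 bases before it and TATAAA 27 bases before it, with no overlap between the words. The Postn window shown held TATAAA alone, 26 bases before the start. Another Postn window, chr3:54359017-54359266, plus strand, held none of these words. RefSeq windows were matched for 7 of the 9 genes, 10 windows in all. Of these windows 3 (Spp1, Tgfbi and Ecm1) held a GATA word, 1 (Ecm1) an AP-1 word and 6 the TATA word. The windows of Tnc overlap and share the same TATAAA, so that counted by gene 5 of the 7 held the TATA word. It began 27 and 26 bases before the start in Ecm1 and Postn, but 126 to 211 bases before it in Thbs2, Tnc and Spp1. Among all 32851 windows of the same length, 26.5% held a GATA word, 6.75% the AP-1 word and 12.4% the TATA word. These shares are per window, not per gene. A match is a description of the letters, not of binding.

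Per kilobase of exon, the 9 genes spanned more than 3 orders of magnitude, and Sparc was the most abundant in both groups. Mean levels in WT were 116.8 CPM per kilobase for Sparc, 47.4 for Thbs1, 36.5 for Ecm1, 20.3 for Fn1, 16.3 for Tgfbi, 8.23 for Tnc, 0.395 for Postn, 0.375 for Spp1 and 0.0348 for Thbs2. The order of the means was the same in iKO, from 258 CPM per kilobase for Sparc to 0.0832 for Thbs2. Of genes next to each other in this order, Thbs1 and Ecm1 overlapped in both groups and so did Postn and Spp1. Fn1 and Tgfbi overlapped in WT only, and Tgfbi and Tnc, and Spp1 and Thbs2, in iKO only. Genes further apart in the order could also overlap, as Thbs1 in WT 3 (17.8) lay below Fn1 in WT 2 (26.3). Among 11903 tested genes with a known exon length, Sparc ranked 211, Thbs1 569, Ecm1 730 and Fn1 1811 by mean level per kilobase, and Thbs2 ranked 11715.

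**Figure D1:**
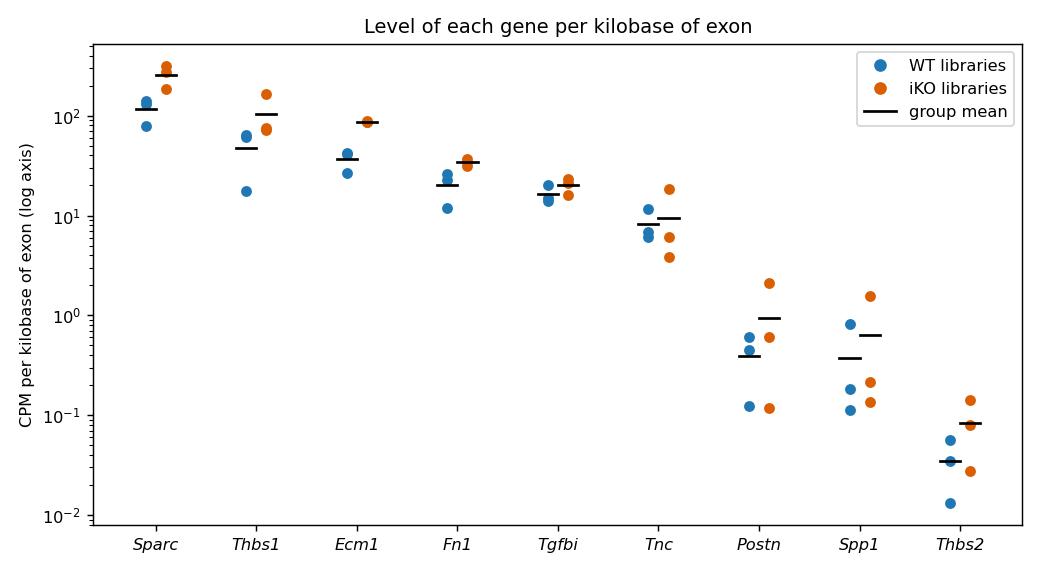
CPM per kilobase of exon (log axis) of the 9 genes, ordered by their mean over the 6 libraries; points are libraries (blue WT, orange iKO) and black lines are group means. Sparc lies at the top with 78.9 to 316 CPM per kilobase, and Postn, Spp1 and Thbs2 lie below all libraries of the other 6 genes.

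All 9 genes had a positive log2 fold change, iKO minus WT, with a median of 1.14 against 0.01 over all tested genes, where 51.2% were positive. For 3 of them the sign rested on 1 library: without iKO 33, Postn stood at -0.14, Tnc at -0.72 and Spp1 at -1.07. None of the 9 was called in edgeR's quasi-likelihood test (adjusted p under 0.05), where 0.339% of all tested genes were called. An unadjusted p under 0.05 was reached by 3 (Ecm1, Sparc and Fn1), against 15.0% of all tested genes. DESeq2 called 2 of the 9, Ecm1 and Sparc, where it called 6.12% of genes, and limma-voom called 1, Ecm1, where it called 0.466%. For Ecm1, Sparc, Thbs1 and Fn1 every iKO library lay above every WT library, and such a separation in this direction was found for 10.5% of tested genes. For the other 5 genes the groups overlapped.

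**Figure D2:**
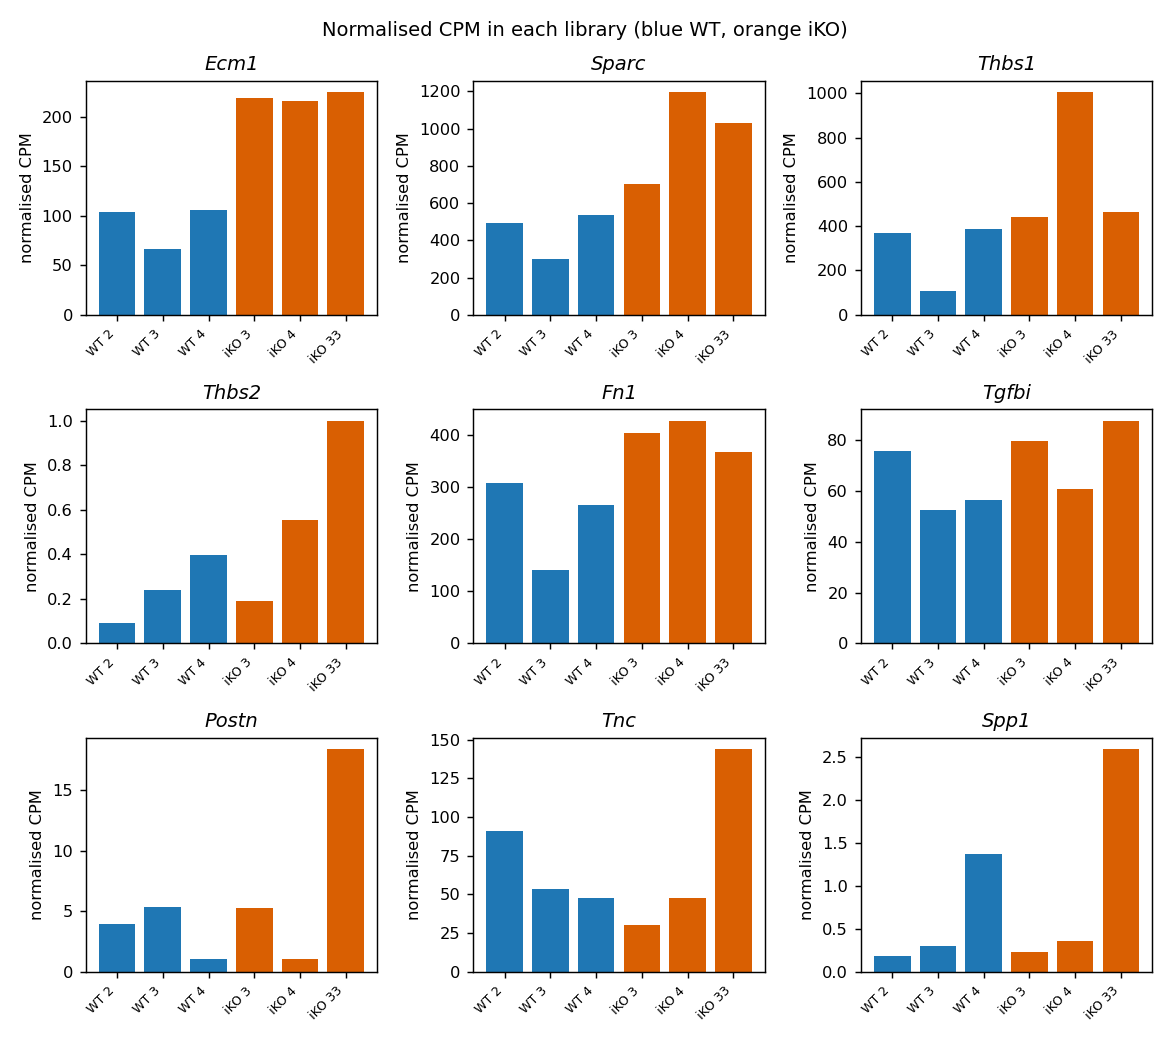
Normalised CPM of each of the 9 genes in each library (bars start at 0; blue WT, orange iKO; each panel has its own scale). In the panels for Ecm1, Sparc, Thbs1 and Fn1 the lowest orange bar stands above the highest blue bar, and in those for Postn, Tnc, Spp1, Thbs2, Tgfbi and Ecm1 the bar of iKO 33 stands above all others.

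Ecm1 (ENSMUSG00000028108.15) encodes extracellular matrix protein 1, a secreted glycoprotein of epidermis and dermis that binds several matrix proteins and whose loss causes lipoid proteinosis in humans. The gene lies on chromosome 3 from 95734147 to 95739569, minus strand, mm10. WT 2 held 104 CPM of it, WT 3 66.5 and WT 4 106, whereas iKO 3 held 219, iKO 4 217 and iKO 33 225. The 3 iKO libraries lay close together, at 220.2 ± 4.37 CPM, and all of them above the WT libraries at 92.1 ± 22.2 CPM (SD, n = 3). This amounts to a log2 fold change of 1.26 (SE 0.19), or 2.39-fold. It just missed the threshold in edgeR's quasi-likelihood test (unadjusted p = 0.000247, adjusted p = 0.0576). It passed in DESeq2 (adjusted p = 3.11e-07), in limma-voom (adjusted p = 0.0482), in edgeR without a count filter (adjusted p = 0.0257) and in edgeR without WT 3 (log2 fold change 1.07, adjusted p = 0.0290), and over all alternatives the adjusted p reached 0.557.

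Sparc encodes osteonectin, a collagen-binding matricellular glycoprotein that influences collagen assembly and cell spreading. The gene (ENSMUSG00000018593.13) lies on chromosome 11 from 55394500 to 55423183, minus strand, mm10. WT 2 held 493 CPM of Sparc, WT 3 299 and WT 4 536, whereas iKO 3 held 702, iKO 4 1196 and iKO 33 1030.4. No library of one group reached into the range of the other, though iKO 3 lay nearer to WT 4 than to iKO 4. A log2 fold change of 1.14 (SE 0.27) resulted, which did not pass in edgeR (adjusted p = 0.151). It passed in DESeq2 (adjusted p = 0.00254). Over all alternatives the adjusted p ran up to 0.633, again in the fit on group alone to WT 3, WT 4, iKO 3 and iKO 4. In every other alternative the adjusted p was at most 0.360, without WT 2. In the authors' deposited table the log2 fold change of Sparc was 0.93 with an adjusted p of 0.00395. The authors' deposited table gives Ecm1 a log2 fold change of 1.12, Thbs1 0.70 and Spp1 0.20, each without a p-value, and in the authors' deposited table Fn1 has 0.61 with an adjusted p of 0.114. Thbs2 has 0.45 there, Tnc 0.12, Postn 0.26 and Tgfbi 0.27, with adjusted p of 0.486 to 0.913. The deposited SE was 0.27 for Spp1 and 0.25 for Postn, against 1.07 and 0.98 in the edgeR fit. The deposited fold changes were thus estimated in another way, and their sizes cannot be compared directly with those given here.

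Thbs1 encodes thrombospondin 1, which binds the receptors CD36 and CD47 and can activate latent TGF-beta. The gene (ENSMUSG00000040152.8) lies on chromosome 2 from 118111876 to 118127133, plus strand, mm10. WT 2 held 367 CPM of Thbs1, WT 3 108 and WT 4 389, whereas iKO 3 held 441, iKO 4 1005 and iKO 33 462. The gap between the groups, from WT 4 to iKO 3, was small beside the distance of WT 3 and of iKO 4 from the rest of their groups. Thbs1 had a log2 fold change of 1.14 (SE 0.53, edgeR adjusted p = 0.371), and it was 0.75 without WT 3 and 0.65 without iKO 4. Thbs2, which encodes the related thrombospondin 2, was covered by 2, 19 and 14 reads in WT 2, WT 3 and WT 4 and by 6, 25 and 85 reads in iKO 3, iKO 4 and iKO 33. These counts amount to 0.0922 to 0.398 CPM in WT and 0.192 to 1.00 CPM in iKO, and the groups overlapped (log2 fold change 1.25, SE 0.69, edgeR adjusted p = 0.446, and 0.59 without iKO 33). Thbs2 (ENSMUSG00000023885.9) lies on chromosome 17 from 14665500 to 14694235, minus strand, mm10.

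Fn1 encodes fibronectin, the scaffold glycoprotein bound by integrins. The gene (ENSMUSG00000026193.15) lies on chromosome 1 from 71585520 to 71653200, minus strand, mm10. WT 2 held 307 CPM of Fn1, WT 3 140.2 and WT 4 266, whereas iKO 3 held 404, iKO 4 427 and iKO 33 366. All iKO libraries lay above all WT libraries, and WT 3 was the lowest. Fn1 had a log2 fold change of 0.75 (SE 0.27, edgeR unadjusted p = 0.0288, adjusted p = 0.277), and it was 0.48 without WT 3. Counts per gene do not separate the splice forms of fibronectin. An antisense gene, Apol7d, shares 292 exon bases with Fn1 in the annotation.

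Tgfbi encodes a secreted adhesion protein that is induced by TGF-beta and belongs with periostin to the fasciclin domain family. The gene (ENSMUSG00000035493.10) lies on chromosome 13 from 56609523 to 56639562, plus strand, mm10. WT 2 held 75.7 CPM of Tgfbi, WT 3 52.5 and WT 4 56.6, whereas iKO 3 held 79.7, iKO 4 61.0 and iKO 33 87.8. The groups overlapped, with WT 2 above iKO 4. The log2 fold change was 0.31 (SE 0.19, edgeR adjusted p = 0.511), and the highest library was 1.67 times the lowest, the narrowest such range among the 9 genes.

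Library iKO 33 was the highest of the 6 libraries for 6 of the 9 genes (Postn, Tnc, Spp1, Thbs2, Tgfbi and Ecm1), as it was for 14.0% of all tested genes. Postn encodes periostin, a fasciclin domain protein of collagen-rich and healing tissue. WT 2 held 3.92 CPM of Postn, WT 3 5.32 and WT 4 1.08, whereas iKO 3 held 5.28, iKO 4 1.02 and iKO 33 18.4. Apart from iKO 33, the iKO libraries lay within or just under the WT range. Its log2 fold change of 1.26 (SE 0.98, edgeR adjusted p = 0.604) turned to -0.14 without iKO 33. Postn (ENSMUSG00000027750.16) lies on chromosome 3 from 54361109 to 54391037, plus strand, mm10.

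Tnc encodes tenascin C, a large hexameric glycoprotein that interferes with adhesion to fibronectin. WT 2 held 91.0 CPM of Tnc, WT 3 53.4 and WT 4 47.5, whereas iKO 3 held 29.9, iKO 4 47.8 and iKO 33 143.8. The iKO group held both the lowest and the highest library. Its log2 fold change of 0.21 (SE 0.57, edgeR adjusted p = 0.900) turned to -0.72 without iKO 33. Tnc (ENSMUSG00000028364.15) lies on chromosome 4 from 63959785 to 64047015, minus strand, mm10.

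Spp1 encodes osteopontin, a secreted phosphoprotein that binds integrins and CD44. It was covered by 4, 24 and 48 reads in WT 2, WT 3 and WT 4 and by 7, 16 and 220 reads in iKO 3, iKO 4 and iKO 33, or 0.184 to 1.36 CPM in WT and 0.224 to 2.59 CPM in iKO. The groups overlapped, and WT 4 was above iKO 3 and iKO 4. The log2 fold change of 0.81 (SE 1.07, edgeR adjusted p = 0.777) turned to -1.07 without iKO 33. Spp1 (ENSMUSG00000029304.14) lies on chromosome 5 from 104435118 to 104441050, plus strand, mm10. The level of iKO 33 was 5.84 times the mean of iKO 3 and iKO 4 for Postn, 3.70 times for Tnc, 8.94 times for Spp1 and 2.68 times for Thbs2, and it was 1.25 times for Tgfbi, 1.03 times for Ecm1 and 1.09 times for Sparc. Summed fibroblast markers in iKO 33 (3.38 CPM, mostly Pdgfra at 1.94 and Twist2 at 0.671) lay between those of iKO 3 (2.05) and iKO 4 (4.82). The part of other cell types in the levels of iKO 33 was not tested.

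**Figure D3:**
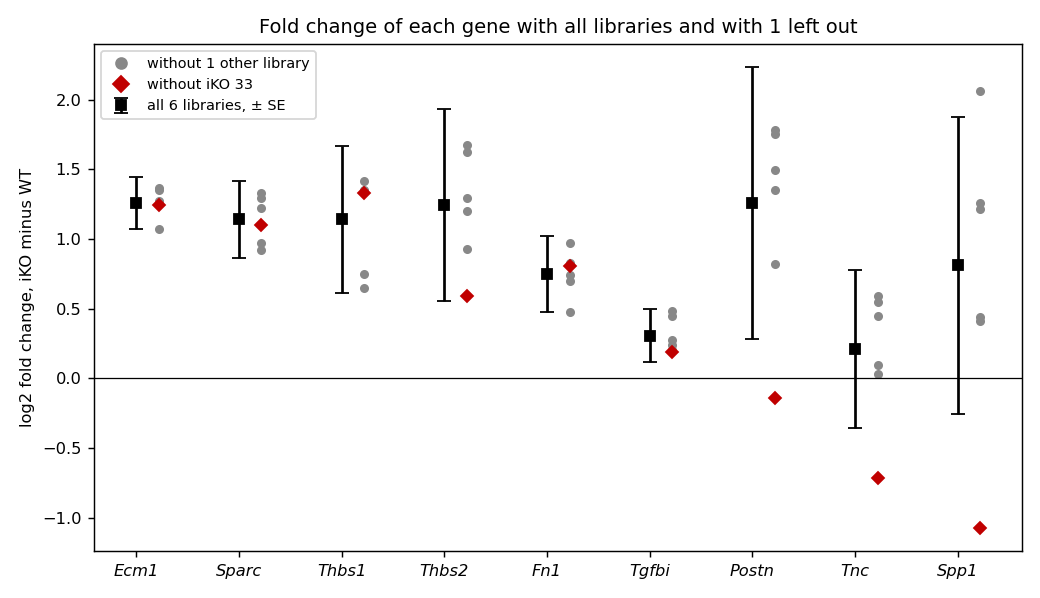
Log2 fold change (iKO minus WT) of each gene; squares are the fit to all 6 libraries with its SE, grey circles the fits without 1 other library, and red diamonds the fit without iKO 33. The values for Ecm1 keep between 1.07 and 1.37 and those for Sparc between 0.92 and 1.33, whereas the red diamonds for Postn, Tnc and Spp1 lie below 0.

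Libraries of one group differed more for these genes than for the typical tested gene. The within-group SD of log2 CPM was above the median of all tested genes (0.24) for all 9, from 0.27 for Ecm1 and 0.28 for Tgfbi over 0.43 for both Sparc and Fn1 to 0.88 for Thbs1, 1.59 for Spp1 and 1.69 for Postn. WT 3 was the lowest WT library for 5 of the 9 (Sparc, Thbs1, Fn1, Tgfbi and Ecm1), as it was for 39.0% of all tested genes. In WT 3 Thbs1 stood at 0.286 times the mean of WT 2 and WT 4, Fn1 at 0.490, Sparc at 0.581 and Ecm1 at 0.634 times, against a median of 0.995 over all tested genes. WT 3 was also the deepest WT library, with 79055307 gene counts, and the part of depth in these values was not tested. Added together, the 9 genes made up 1441 CPM in WT 2, 725 in WT 3 and 1404 in WT 4, and 1881, 2955 and 2336 CPM in iKO 3, iKO 4 and iKO 33. Sparc, Thbs1 and Fn1 supplied 75.4% to 88.9% of that sum in every library.

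The genes whose levels followed Sparc most closely were ranked by the root mean square difference between log2 CPM profiles, each centred on its mean over the 6 libraries. The ranking took in 10395 genes with a mean log2 CPM of at least 1, and left out predicted or unnamed gene models by their symbols. It is a description of 6 libraries that share the group difference, with no test. The nearest was Il24, a cytokine gene of the interleukin 10 family, with a difference of 0.05. It measured 113, 72.8 and 126 CPM in WT 2, WT 3 and WT 4 and 152, 274 and 236 CPM in iKO 3, iKO 4 and iKO 33, in the same order of libraries as Sparc. The next were the carbohydrate kinase gene Fggy (0.17), the DNA repair nuclease gene Fan1 (0.17), the deacetylase gene Hdac6 (0.18) and the phospholipase gene Pla2g15 (0.19). Of the matricellular genes, Ecm1 ranked 18 (0.24), Fn1 64 (0.31), Thbs1 276 (0.43) and Tgfbi 1398 (0.58), while Tnc ranked 9325 (0.91) and Postn 10303 (1.59).

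**Figure D4:**
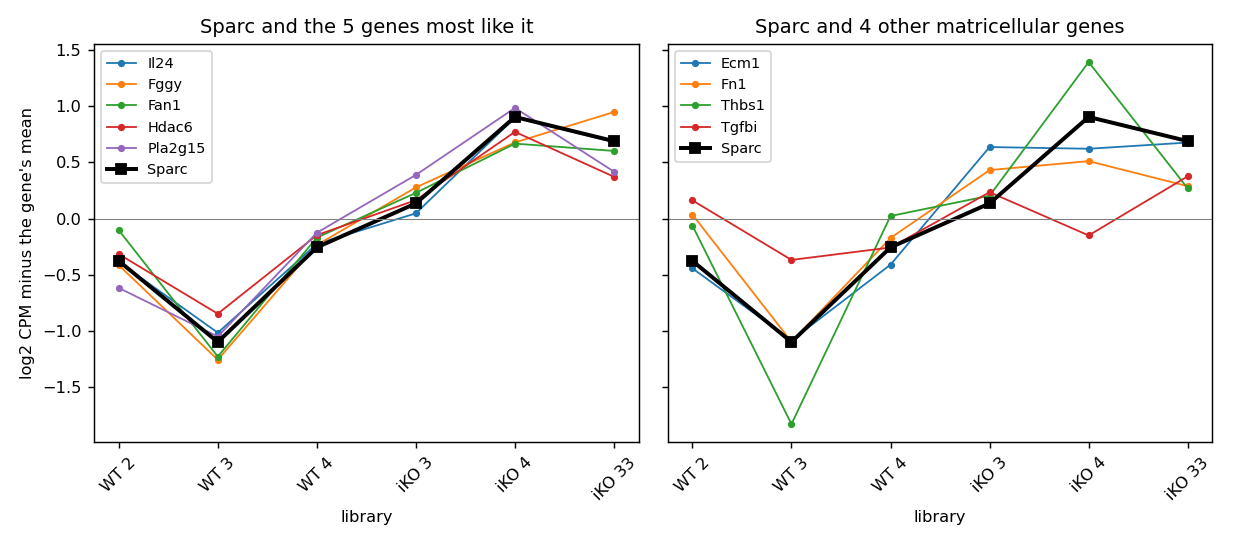
Log2 CPM minus the mean of the gene over the 6 libraries; lines only join the points of one gene. Left, Sparc (black) with the 5 genes most like it, which lie at -0.85 to -1.25 in WT 3; right, Sparc with Ecm1, Fn1, Thbs1 and Tgfbi, where Thbs1 runs from -1.83 in WT 3 to 1.39 in iKO 4.

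Most other genes of the same families had few or no reads in these cells. Of 22 further members of the SPARC, thrombospondin, tenascin, CCN and osteopontin families, 15 had at most 21 reads in any library and were not tested, among them the tenascin genes Tnn, Tnr and Tnxb. The other 7 were tested, 5 with positive and 2 with negative log2 fold changes (median 0.87, and -0.33 with a minimum mean of 5 CPM, where fewer of them are tested). EdgeR called 0 after adjustment and DESeq2 3, and 5 had an unadjusted edgeR p under 0.05. Over all tested genes these shares were 0.339%, 6.12% and 15.0%. Cyr61, a CCN family gene whose product binds integrins, stood at 34.2 to 58.3 CPM in WT and 72.2 to 101.7 CPM in iKO, without overlap (log2 fold change 0.87, SE 0.22). Fstl1, which encodes a follistatin-like protein related to SPARC, was at 24.2, 2.44 and 31.6 CPM in WT 2, WT 3 and WT 4 and at 1.53, 1.02 and 3.01 CPM in iKO 3, iKO 4 and iKO 33. WT 3 thus lay with the iKO libraries for Fstl1, and its log2 fold change was -3.36 (SE 0.90, edgeR adjusted p = 0.176). The SPARC-related gene Smoc2 stood at 2.55 (SE 0.77), 1.48 without iKO 33, from no more than 3.97 CPM in any library, and the thrombospondin gene Thbs3 at 1.12 (SE 0.42).

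Of 20 receptor genes for these proteins, 17 were tested, 11 with positive and 6 with negative log2 fold changes (median 0.19, and 0.33 with a minimum mean of 5 CPM). EdgeR called 0 after adjustment and DESeq2 2, against 0.339% and 6.12% of all tested genes. An unadjusted edgeR p under 0.05 was found for 4, all with higher values in iKO, against 15.0% of all tested genes in either direction. Lrp1, an endocytic receptor that takes up thrombospondins, measured 38.9 ± 12.8 CPM in WT and 72.6 ± 9.87 CPM in iKO (log2 fold change 0.90, SE 0.25). Stab1, which encodes the scavenger receptor stabilin 1 that binds SPARC, measured 37.9 ± 15.5 and 79.4 ± 13.0 CPM (1.07, SE 0.33). The osteopontin and hyaluronan receptor gene Cd44 had a log2 fold change of 0.37 (SE 0.14), and the heparan sulphate proteoglycan gene Sdc1 one of 0.32 (SE 0.12). For these 4, the tested receptor genes with the smallest p, every iKO library lay above every WT library. Such a separation was found for 10.5% of all tested genes. Genes picked by a small p tend to show it, so that share cannot be set against these 4. For Cd44 the gap was narrow, from 412 CPM in WT 4 to 417 CPM in iKO 3.

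All 15 genes of the TGF-beta list were tested, 9 with positive and 6 with negative log2 fold changes. Their median was 0.14, but -0.07 without WT 3 and -0.04 without iKO 4. None passed in edgeR or DESeq2, which called 0.339% and 6.12% of all tested genes. An unadjusted edgeR p under 0.05 was reached by 2, against 15.0% of all tested genes. The signal transducer gene Smad2 stood at 108 ± 9.76 CPM in WT and 79.7 ± 8.39 CPM in iKO (-0.44, SE 0.13), without overlap. The receptor gene Tgfbr2 stood at 0.56 on the log2 scale (SE 0.27) and the feedback gene Skil at 0.29 (SE 0.15), both with overlapping groups.

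Of 18 crosslinking and protease genes, 11 were tested, 6 with positive and 5 with negative log2 fold changes. Their median was 0.12, but -0.04 without WT 3 and also -0.04 without iKO 33, and 0.45 with a minimum mean of 5 CPM. EdgeR called 0 after adjustment and DESeq2 2, 1 in each direction, and 3 had an unadjusted edgeR p under 0.05. The shares over all tested genes were 0.339%, 6.12% and 15.0%. Mmp14, the membrane-type collagenase that cleaves fibronectin, measured 87.9 ± 14.2 CPM in WT and 160 ± 38.2 CPM in iKO (0.86, SE 0.20). Adamts1, a secreted metalloproteinase that can cleave thrombospondins, measured 117, 244 and 56.2 CPM in WT 2, WT 3 and WT 4 and 51.9, 35.8 and 46.5 CPM in iKO 3, iKO 4 and iKO 33 (-1.64, SE 0.49, and -0.95 without WT 3). Plat, which encodes tissue plasminogen activator, had a log2 fold change of 1.31 (SE 0.49). That of the transglutaminase gene Tgm2, whose product crosslinks fibronectin, was 1.48 (SE 0.71) and 0.51 without iKO 3.

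**Figure D5:**
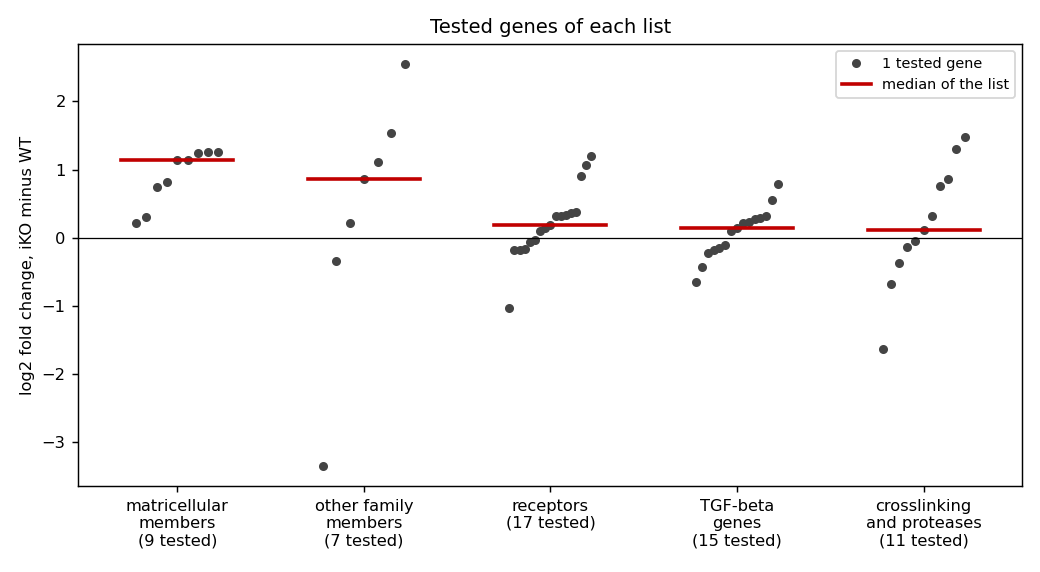
Log2 fold change (iKO minus WT) of each tested gene (points) of the 9 matricellular genes and of the 4 other lists, with the median of each list as a red line. The medians are 1.14, 0.87, 0.19, 0.14 and 0.12 from left to right, against 0.01 over all tested genes.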

How the data were processed

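TruSeq RNA v2 libraries of total RNA were sequenced, per the labels' protocols. Build mm10 and the tools TopHat2, HTSeq, DESeq and DESeq2 (no versions) appear in the submitters' processing notes; the annotation and the strand setting are not stated there. The authors deposited whole-number counts per gene symbol, with 5 HTSeq summary rows that were left out. These made up 34.8% to 35.5% of all counts in WT and 27.4% to 32.0% in iKO, mostly reads without a unique alignment (29.5% to 30.5% and 21.7% to 26.5%), and their part in the results was not tested. The authors' deposited comparison table gives a mean signal over libraries, log2 fold changes with SE, Wald scores and p-values, per the file headers.

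The counts went through edgeR 4.0.16 (R 4.3.3): filterByExpr at a minimum count of 10, TMM factors, and the two-sided robust quasi-likelihood test (glmQLFit, glmQLFTest) on group alone, with Benjamini-Hochberg adjustment over 12672 genes. SE was taken as |log2 fold change| over the root of F. Log2 CPM used a prior count of 2. Exon lengths and positions come from GENCODE M21 (mm10). Alternatives used DESeq2 1.42.0, limma 3.58.1, other scalings and filters, blocks, and leaving out each library; the 4 numbered libraries without a block were added after seeing the data. The test was checked on simulated data. Members and lists were chosen with earlier results of these data known. Named genes were all 9 members, up to 4 tested genes of each list with the smallest p, the 5 genes most like Sparc, marker genes and Gata6, of which 1 list gene is not reported here; Xist, Apol7d and the markers Trp63, Cdh1 and Krt15 were singled out after their values were seen. The numbers of the libraries were not taken as pairing them. Protein sequences were not used here.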

Additional observations from a re-analysis of the deposited data

How the results depend on the processing

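Of the 9 matricellular genes, edgeR called 0 under either other scaling, with a minimum mean of 5 CPM, without robust estimation and with a block of the 2 deepest libraries. It called 1 without a count filter (Ecm1), limma-voom called 1 (Ecm1) and DESeq2 called 2 (Ecm1 and Sparc); leaving out single libraries gave 0 to 1. Over all genes the count of calls was 43, and it was 76 without a count filter, 775 in DESeq2 and 7 to 31 without single libraries (7 without WT 2, 13 without iKO 4, 17 without iKO 33, 20 without iKO 3, 21 without WT 4). The replicate block could use only the 4 libraries numbered 3 and 4; it called 103 genes, 2 of them matricellular (Sparc, adjusted p = 0.0419, and Thbs1, adjusted p = 0.0467), and the same 4 libraries without the block gave 4, none of them matricellular. The log2 CPM difference between WT 3 and WT 4 correlated at 0.596 across genes with that between iKO 3 and iKO 4. With only 2 pairs, the numbers are not shown to pair the samples. Direction turned for 3 genes. Tnc stood at -0.41 with the replicate block, -0.38 in those libraries without it and -0.10 with the block of the deepest libraries, Postn at -0.0425 with the replicate block and -0.0415 without it, and Spp1 at -1.32 and -1.47. Leaving out single libraries gave -0.72 to 0.59 for Tnc, -0.14 to 1.78 for Postn and -1.07 to 2.07 for Spp1, the lowest each time without iKO 33. Spp1 and Thbs2 had no value under the minimum of 5 CPM. Both rest on few reads: 3 counts amount to 0.0353 CPM in the deepest library and 0.138 CPM in the shallowest. Of the fibroblast markers, Pdgfra (0.17) stood at -0.48 with the replicate block, -0.23 in those libraries without it and -0.27 to 0.53 without single libraries, and Twist2 (-0.38) at -1.10 to 1.07 without single libraries. The causes were not tested.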
